A study of Mus musculus with 4 samples.

Results

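The transforming growth factor beta (TGF-beta) and activin genes examined here are 8 of the 55450 genes of a single-cell RNA sequencing matrix of 4T1 tumours. They were taken by gene symbol: the ligand genes Tgfb1, Tgfb2 and Tgfb3, the activin subunit gene Inhba, the receptor genes Tgfbr1, Tgfbr2 and Tgfbr3, and Tgfbi. Tgfbi encodes a secreted matrix protein that TGF-beta induces, so it is neither a ligand nor a receptor. The activin receptor genes stand in the lists of other pathway genes. 4T1 is a mouse mammary carcinoma line. Its cells (1000000 in 25 μl) were implanted into the right flank of female BALB/c mice aged 6 to 8 weeks, PBS or TIOs was injected intravenously on day 7, near-infrared (NIR) light (980 nm, 1.0 W per cm2, 5 min) followed on days 8, 9 and 10, and tumours were taken on day 13. TIOs are macrophages treated with liquid nitrogen that carry light-converting nanoparticles and drugs which drive lipid peroxidation under NIR light. Of the 4 samples, 2 were PBS with NIR light, 1 was TIOs with NIR light (TIOs+NIR), and 1 was left in no group, as its title reads PBS and its protocol names TIOs. No source used here links the 4 barcode suffixes, called libraries 1 to 4 below, to these samples. No treatment was therefore compared, no test was run, and each library is given as a sample of unknown treatment.

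TGF-beta ligands are secreted in a latent form held by a propeptide and by binding proteins, and integrins, proteases or thrombospondin release them. The free ligand binds the type II receptor Tgfbr2, which recruits and phosphorylates the type I receptor Tgfbr1, and SMAD proteins carry the signal to the nucleus. Tgfbr3, or betaglycan, is a co-receptor with high affinity for TGF-beta 2. Dimers of the Inhba product form activin A, which signals through the type II receptors Acvr2a and Acvr2b and the type I receptor Acvr1b, and which follistatin (Fst) neutralises. In tumours the pathway is known for activating fibroblasts, for restraining T cells and NK cells, and for shaping myeloid cells.

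On GRCm38, Tgfb1 lies at chr7:25687002-25705077 on the plus strand, Tgfb2 at chr1:186622792-186705989 on the minus strand, and Tgfb3 at chr12:86056745-86079041 on the minus strand. Inhba and Tgfbi lie on chromosome 13, on the plus strand, at chr13:16011851-16031621 and chr13:56609523-56639562. Tgfbr1 lies at chr4:47353222-47414931 on the plus strand, Tgfbr2 at chr9:116084293-116175360 on the minus strand, and Tgfbr3 at chr5:107106570-107289629 on the minus strand. An exon of Gm43422 (310 UMIs in all) overlaps Tgfbr3 on its own strand, so counts of that stretch are uncertain, and the genes that overlap Tgfb2 and Tgfb3 exons on the other strand held at most 12 UMIs. The RefSeq table of promoters (GRCm38.p6) held 6 of the 8 genes and did not list Tgfb3 and Tgfbr3. The 250 bases before the start are shown for the 3 ligand and receptor genes in it that were highest in fibroblasts (Tgfb2 at chr1:186705990-186706239, minus strand; Inhba at chr13:16011601-16011850, plus strand; Tgfbr2 at chr9:116175364-116175613, minus strand), with that of the broadly detected Tgfb1 (chr7:25686752-25687001, plus strand) as a contrast. Capitals mark CAGAC (the SMAD box), TATAAA (the TATA box) and GGGCGG (the GC box) on either strand.
Tgfb2: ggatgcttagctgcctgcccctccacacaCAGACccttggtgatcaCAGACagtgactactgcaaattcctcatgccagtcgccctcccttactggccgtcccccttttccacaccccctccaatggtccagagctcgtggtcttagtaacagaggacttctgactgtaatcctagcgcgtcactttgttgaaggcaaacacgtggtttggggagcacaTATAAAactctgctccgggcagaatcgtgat
Inhba: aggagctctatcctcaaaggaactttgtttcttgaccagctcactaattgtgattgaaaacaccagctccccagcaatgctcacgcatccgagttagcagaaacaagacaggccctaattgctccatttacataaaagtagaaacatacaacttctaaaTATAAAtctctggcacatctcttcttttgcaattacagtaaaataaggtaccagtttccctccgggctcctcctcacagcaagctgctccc
Tgfbr2: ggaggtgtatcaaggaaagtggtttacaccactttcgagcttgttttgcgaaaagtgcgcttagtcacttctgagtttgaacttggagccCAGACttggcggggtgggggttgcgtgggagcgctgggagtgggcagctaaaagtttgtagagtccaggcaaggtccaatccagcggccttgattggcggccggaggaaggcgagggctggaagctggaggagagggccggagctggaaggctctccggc
Tgfb1: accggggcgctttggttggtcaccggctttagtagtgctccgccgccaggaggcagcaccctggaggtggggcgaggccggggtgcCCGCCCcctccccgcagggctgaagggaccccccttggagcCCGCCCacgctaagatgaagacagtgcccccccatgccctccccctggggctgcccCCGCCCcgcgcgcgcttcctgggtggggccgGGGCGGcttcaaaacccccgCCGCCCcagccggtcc

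The 4 windows differed in make-up. Tgfb2 held 2 SMAD boxes and a TATA box that began 31 bases before the start, and Inhba held 1 TATA box that began 91 bases before it. Tgfbr2 held 1 SMAD box, and Tgfb1 held 5 GC boxes with no TATA box. Bases were 53.6% G or C in Tgfb2, 43.2% in Inhba, 58.4% in Tgfbr2 and 75.2% in Tgfb1. Over 32851 promoter windows of this length, 42.2% held CAGAC, 12.4% TATAAA and 32.7% GGGCGG, and 6.75% held the AP-1 site TGANTCA, which none of the windows of these genes held. A match describes letters and is not a binding site.

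The matrix held 33064 barcodes in 4 libraries of 69255999 to 108646352 unique molecular identifiers (UMIs, 1 per captured RNA molecule), and 32133 cells with at least 300 genes and at most 15% mitochondrial UMIs were kept. Cells were gated by marker genes into 16 types, which took 27268 cells (84.9%), and type names below stand for these gates. Another 1041 cells passed gates of several types and were left out of the types, and 3824 passed none. A cell that passed the monocyte gate and 1 gate other than macrophage was given that other type. The median UMIs per kept cell ran from 2641.5 in library 2 to 11698 in library 1, and 202 barcodes (0.611%) had a sequence found in more than 1 library. Cells were labelled as sorted for the leucocyte protein CD45, yet 3152 fibroblasts, with Ptprc (the CD45 gene) at 16.5 CPM against 691 in neutrophils, and 4181 tumour or epithelial cells were present. The libraries differed in make-up: library 1 held 3939 of the tumour cells and 145 of the fibroblasts, library 4 held 2880 of the 4031 monocytes, and library 3 held no tumour cell. Fibroblasts held 93356072 of the 354742109 UMIs of kept cells, tumour cells 87511131 and monocytes 31766348. A type's share of a gene's UMIs follows these totals too. Levels are UMIs per 1000000 UMIs of a type (CPM), with exact 95% Poisson intervals. Where a type held no UMI of a gene, the level it allows is given as that of 3 UMIs, which is below the interval's upper limit. Shares of cells carry exact 95% binomial (Clopper-Pearson) intervals, and both kinds cover counting error only, not differences between mice. Depth differs between cells, so shares are also given after each cell was thinned to 1000 UMIs. The 1890 cells with fewer UMIs, 573 of them neutrophils, were left out of thinned shares. Free RNA adds UMIs to every cell and thinning does not remove it, so a type in which the gene was low is given beside them.

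Among the gated types, fibroblasts had the highest pooled level of 4 of the 8 genes: Tgfb2, Inhba, Tgfbr2 and Tgfbr3. Among all 17349 genes with at least 100 UMIs, fibroblasts led 9.56%. In 5 of the 8 genes the same type led within each of the 4 libraries, the same 4 genes in fibroblasts and Tgfbi in monocytes. With each cell thinned to 1000 UMIs this number was 3, as Tgfb2 and Inhba each had another leading type in at least 1 library. Over all genes one type led in every library for 9.67%, fibroblasts for 4.63% and monocytes for 0.144%. That background takes genes from 100 UMIs upward, while the 8 genes held 3936 to 110085 UMIs. A leading type is less stable at few UMIs, and no background of genes with like UMIs was computed. The other 3 of the 8 genes had no single leading type. Tgfb1 was spread over lymphoid, myeloid and endothelial cells, Tgfb3 lay in pericytes, fibroblasts and tumour cells, and Tgfbr1 had between 10.4 and 100 CPM in every type. Types with fewer than 20 cells in a library were not ranked there.

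**Figure D1:**
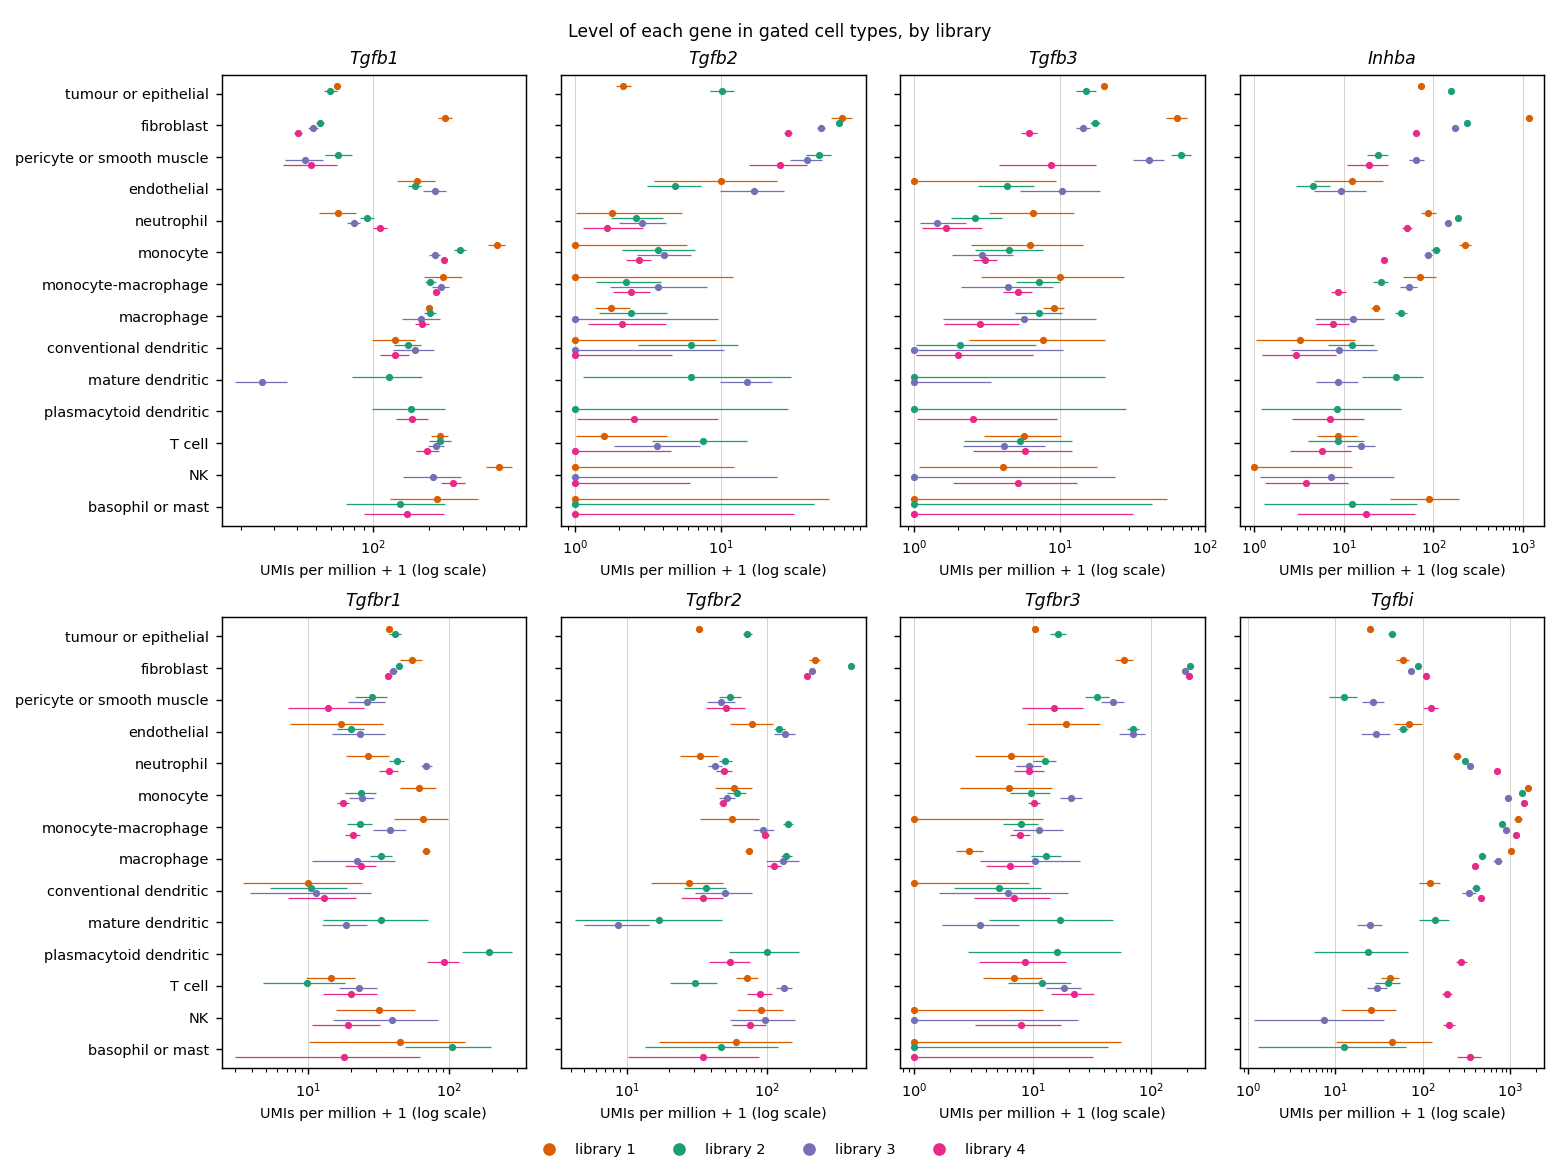
Level of the 8 genes in each gated cell type and library, as CPM plus 1 on a log axis, with exact 95% Poisson intervals as bars and libraries as colours. Keratinocytes, B cells and types with fewer than 20 cells in a library are not drawn, and the fibroblast points of Tgfb2, Inhba, Tgfbr2 and Tgfbr3 are the highest within each library.

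Tgfb1, the ligand gene that most leucocytes transcribe, was detected in 46.1% of all cells (36481 UMIs). Its pooled level was highest in NK cells, at 311 CPM (281 to 344), followed by monocytes at 245 CPM (239 to 250), T cells at 217 CPM and monocyte-macrophages at 215 CPM. These types changed places between libraries. NK cells had 468 CPM in library 1, 208 CPM in library 3 and 267 CPM in library 4, with only 7 NK cells in library 2, at 257 CPM. Monocytes had 455, 291, 213 and 239 CPM in libraries 1 to 4. T cells had 226, 227, 217 and 194 CPM. The T cell level was above that of monocyte-macrophages in 1 of the 4 libraries, so this pair had no fixed order. Macrophages were narrow in range, at 199, 200, 180 and 182 CPM, and endothelial cells had 170, 167 and 214 CPM in libraries 1 to 3. Neutrophils, at 64.6, 92.8, 78.4 and 109 CPM, were lower than monocytes, monocyte-macrophages and macrophages in each library. After thinning, 26.0% of NK cells (20.1 to 32.6) and 22.2% of monocytes (20.9 to 23.6) held a Tgfb1 UMI, against 5.30% of fibroblasts (4.54 to 6.15). Monocytes held 21.3% of all Tgfb1 UMIs, and NK cells held 1.08%.

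Within the T cells, regulatory T cells (the 134 with a UMI of Foxp3, their lineage factor) had 222, 231, 283 and 237 CPM of Tgfb1. T cells with Cd8a or Cd8b1 had 223 CPM in library 1, which held 222 of the 246. The Foxp3 cells of library 1 thus stood at the level of the CD8 T cells there. Mature dendritic cells, the migratory Ccr7 state, had 25.0 CPM in library 3, which held 189 of their 224 cells, and 122 CPM in the 20 cells of library 2. Conventional dendritic cells had 130, 153, 166 and 130 CPM, above the mature cells of library 3.

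In fibroblasts and pericytes, library 1 stood apart for Tgfb1. Fibroblasts had 241 CPM there and 51.8, 47.5 and 39.2 CPM in libraries 2 to 4. The 17 pericytes of library 1 had 246 CPM, and those of the other libraries had 65.0, 42.7 and 46.2 CPM. Tumour cells, with 63.5 and 58.9 CPM in libraries 1 and 2, did not show this gap. Markers of other types also differed in the library 1 fibroblasts. Of the 14 lists of these markers, 6 summed to more in library 1 than in any other library and 6 to less. The 7 tumour markers, all detected, summed to 454 CPM in them and to between 15.4 and 40.1 CPM in the other libraries. The 6 macrophage markers summed to 220 CPM against 12.1 to 92.2 CPM, and the 5 keratinocyte markers, of which Dsc3 was at 0, to 92.8 CPM against 3.59 to 5.18 CPM. The 5 basophil or mast cell markers, of which Cpa3, Fcer1a and Ms4a2 were at 0, summed to 35.9 CPM against 0.709 to 1.49 CPM. Pericyte and mature dendritic cell markers were higher by less, at 52.9 against 36.2 to 45.2 CPM and 278 against 247 to 277 CPM. Lower in library 1 were the markers of neutrophils, at 215 against 413 to 547 CPM, of monocytes, at 727 against 901 to 1562 CPM, of T cells, at 22.9 against 39.8 to 337 CPM, and of B cells, at 178 against 276 to 355 CPM, with those of endothelial and conventional dendritic cells. The fibroblast markers themselves summed to 41484 CPM, between the 54751 CPM of library 2 and the 23002 CPM of library 4. The tumour markers were also higher in other types of library 1, at 664 CPM in neutrophils, 489 in monocytes, 463 in macrophages and 568 in T cells. In the other libraries these types had at most 81.5 CPM of them, so this difference was not particular to fibroblasts. The part of other types' markers in the library 1 levels was not tested.

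Tgfb2, whose product binds betaglycan with high affinity, was a gene of fibroblasts and pericytes. Fibroblasts held 69.4% of its 6212 UMIs and had 66.4, 64.1, 47.5 and 27.8 CPM in libraries 1 to 4. Pericytes had 46.2, 37.8 and 24.4 CPM in libraries 2 to 4, with 61.5 CPM in the 17 cells of library 1. The fibroblast level was above the pericyte level in each of the 3 ranked libraries, but the pooled intervals overlapped, at 44.8 to 47.6 CPM against 34.6 to 46.3 CPM. After thinning, pericytes led in library 2, at 58.8 CPM in 102 cells against 51.2 CPM in 1290 fibroblasts. No interval was computed for these thinned levels. Next in the pooled order were mature dendritic cells, at 12.3 CPM, and endothelial cells, at 5.90 CPM. The remaining types had at most 2.16 CPM when pooled. Tumour cells had 1.14 and 9.26 CPM in libraries 1 and 2. Neutrophils had 0.798, 1.63, 1.87 and 0.658 CPM, which was 1.20, 2.54, 3.94 and 2.37% of the fibroblast level. The fibroblast marker genes in neutrophils stood at 0.398, 3.30, 2.84 and 4.42% of their fibroblast level, so the ratio for Tgfb2 lay near that of these markers in libraries 2 to 4. Thinned, 3.69% of fibroblasts (3.05 to 4.41) and 3.41% of pericytes (1.38 to 6.91) held a Tgfb2 UMI. No UMI was found in 204 NK cells, which allows up to 2.38 CPM.

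Tgfb3, the ligand gene often found in mural and mesenchymal cells, had its highest pooled level in pericytes, at 49.0 CPM (42.9 to 55.7). The level differed between libraries, with 67.7, 40.2 and 7.70 CPM in libraries 2 to 4, and the last value rests on 6 UMIs in 25 cells. The 17 pericytes of library 1 held 12 UMIs, or 92.2 CPM (47.6 to 161). Fibroblasts had 63.2 CPM in library 1 and 16.4, 13.6 and 5.18 CPM in the others. Pericytes led in libraries 2 to 4, and in library 1 too when types of 10 cells were ranked. Under the limit of 20 cells fibroblasts led there. Tumour cells had 19.3 and 14.2 CPM in libraries 1 and 2 and held 41.8% of the 3936 UMIs. Non-cycling Epcam-positive tumour cells had 23.0 and 15.2 CPM and cells with Mki67 or Top2a, genes of proliferation, had 17.1 and 14.0 CPM. After thinning, 4.39% of pericytes (2.03 to 8.17) and 2.28% of tumour cells (1.84 to 2.79) held a Tgfb3 UMI. The 224 mature dendritic cells held none, which allows up to 1.61 CPM.

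**Figure D2:**
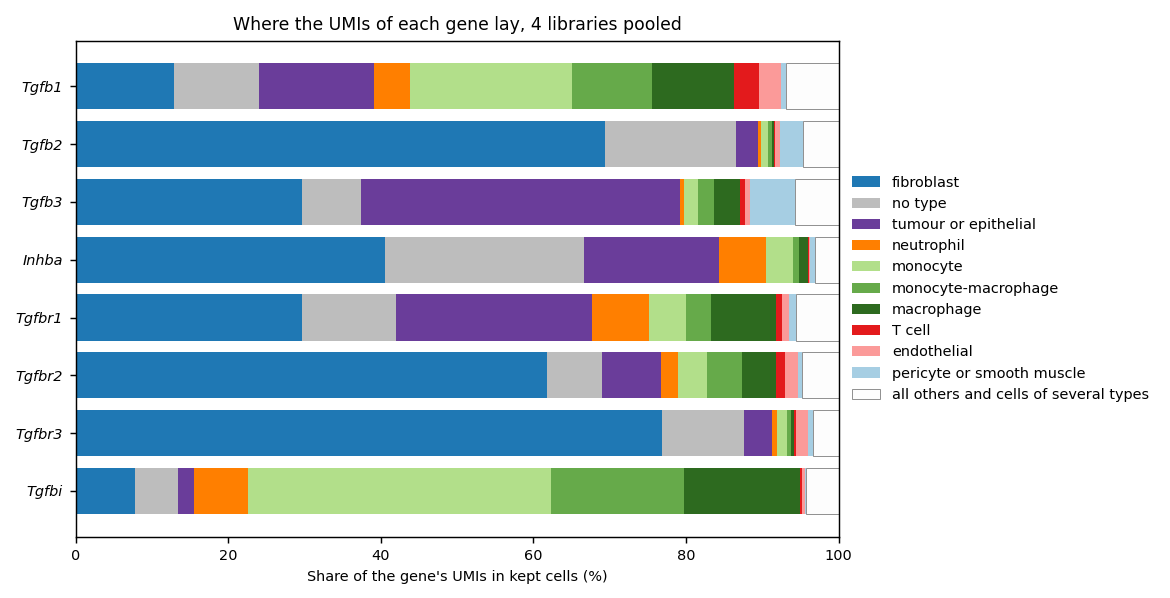
Share of each gene's UMIs, in percent of its total over all kept cells, that lay in each gated type, with cells of several types and of no type shown too. Fibroblasts held 69.4% of Tgfb2, 61.7% of Tgfbr2 and 76.9% of Tgfbr3 UMIs, and tumour cells held the largest share of Tgfb3, 41.8%. Of the 354742109 UMIs of all genes, fibroblasts held 93356072 and tumour cells 87511131.

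Among the gated types Inhba, the activin A subunit gene, was highest in fibroblasts in each library. Its fibroblast level ranged widely between libraries. Cells of no type with over 10000 UMIs had 330, 222 and 98.8 CPM in libraries 2 to 4, above the fibroblasts. Fibroblasts had 1158, 234, 174 and 63.7 CPM in libraries 1 to 4. Without library 1 their pooled level was 152 CPM, below the 158 CPM of tumour cells, all but 2 of which were then the 240 cells of library 2. Tumour cells had 72.1 CPM in library 1 and 158 CPM in library 2, and cells with Mki67 or Top2a, at 70.4 and 132 CPM, lay below non-cycling Epcam-positive cells, at 76.2 and 199 CPM. Neutrophils were next to fibroblasts when pooled and in libraries 2 to 4, at 87.0, 188, 146 and 49.8 CPM, and lower than them in 4 of 4 libraries. In library 1 monocytes were second. The lead of fibroblasts outside library 1 was narrow: neutrophils led in library 4, at 61.8 against 58.0 CPM, once the 5% of cells with the most UMIs in each type were left out, and in library 2, at 207 against 205 CPM, after thinning. In library 4 pericytes led after thinning, at 87.0 CPM in 23 cells, a level that rests on very few UMIs. Endothelial cells led there when types of 10 cells were ranked, at 85.1 CPM in 19 cells. A single endothelial cell held 37 of the 65 Inhba UMIs of that type over all libraries, so this lead rests mainly on 1 cell. Library 4 was lowest for neutrophils as for fibroblasts. Monocytes had 226, 105, 85.3 and 27.0 CPM, again lowest in library 4. Macrophages had 21.9, 42.9, 11.7 and 6.55 CPM, and T cells 7.66, 7.60, 14.8 and 4.79 CPM.

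The neutrophil level of Inhba was 7.51, 80.6, 84.0 and 78.2% of the fibroblast level in libraries 1 to 4, while the fibroblast markers were at 0.398 to 4.42%. The part of free RNA in the neutrophil level was not tested. For T cells, Inhba stood at 0.661, 3.25, 8.52 and 7.52% of the fibroblast level, nearer the 0.328, 2.33, 2.95 and 3.67% of the fibroblast markers. After thinning, 9.70% of fibroblasts (8.68 to 10.8) and 8.74% of neutrophils (8.14 to 9.37) held an Inhba UMI, and these intervals overlapped. In T cells the thinned share was 0.685%. Among the neutrophils, those with a UMI of Cd274, the PD-L1 gene, and none of the neutrophil gene Retnlg had 135, 221, 198 and 64.8 CPM of Inhba. Retnlg-positive neutrophils had 75.0, 140, 139 and 47.4 CPM, lower in each library.

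Inhba UMIs were unevenly spread over the fibroblasts. The 5% of fibroblasts with the most Inhba per UMI (8, 67, 36 and 49 cells) held 26.0, 56.2, 55.8 and 76.3% of the fibroblast Inhba UMIs of libraries 1 to 4. Over all libraries, the 5% of fibroblasts with the most UMIs of a gene held 64.7% of their UMIs of Inhba, and between 16.4% (Tgfbr3) and 43.4% (Tgfb3) for the other 7 genes. A single fibroblast held 408 UMIs of Inhba. The other genes in the Inhba-high fibroblasts were compared with the remaining fibroblasts of the same library. Il11, a cytokine gene of activated fibroblasts that was chosen after its values were seen, had 881, 684, 908 and 363 CPM in them against 189, 206, 416 and 62.8 CPM, higher in the Inhba-high cells of 4 of 4 libraries. Tgfb1 was higher there too, at 294, 134, 81.3 and 65.0 CPM against 238, 46.8, 45.3 and 37.8 CPM. Tgfbr2 and Tgfbr3 went the other way. Tgfbr2 had 158, 237, 108 and 147 CPM in the Inhba-high cells against 219, 399, 213 and 193 CPM, and Tgfbr3 had 22.6, 144, 163.4 and 105 CPM against 60.1, 214, 191 and 213 CPM. This was not particular to receptor genes. The gate marker Col1a1 was also lower, at 8663, 9731, 5645 and 3140 CPM against 12725, 13137, 5878 and 3558 CPM. Lrrc15, which splits the fibroblasts below, was higher, at 693, 241, 24.5 and 24.8 CPM against 562, 83.6, 15.7 and 12.8 CPM. The type I receptor gene Tgfbr1 had 67.8, 54.8, 26.1 and 40.7 CPM against 52.0, 42.0, 39.8 and 35.6 CPM, higher in the Inhba-high cells of 3 of 4 libraries. Median UMIs per cell were 15075.5, 24929, 34014.5 and 36939 in the Inhba-high cells and 14238, 22426, 27624 and 37098.5 in the rest. No intervals are given for the levels in Inhba-high cells, and those of library 1 rest on 8 cells.

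**Figure D3:**
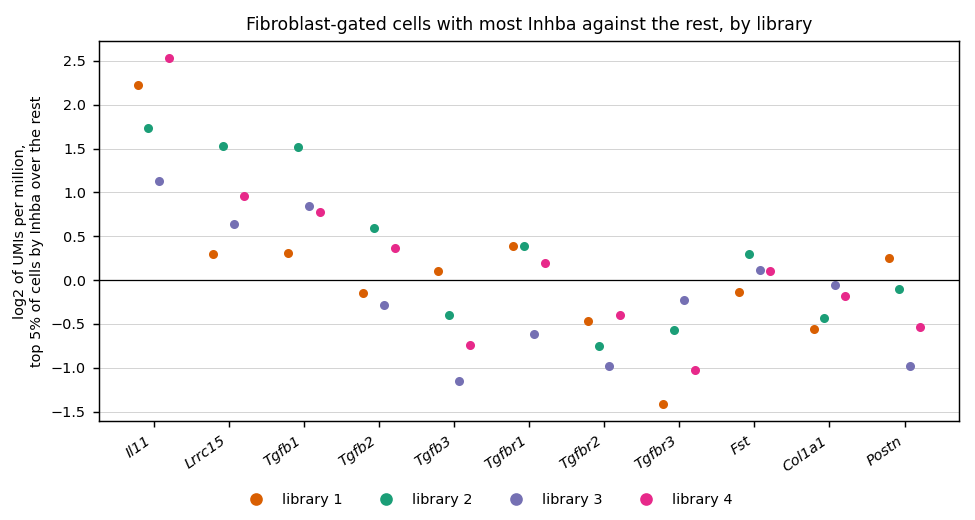
Ratio, on a log2 scale, of the level of each gene in the 5% of fibroblasts with the most Inhba per UMI to its level in the other fibroblasts, by library. Il11, Lrrc15 and Tgfb1 lie above 0 in all 4 libraries, and Tgfbr2, Tgfbr3 and the gate marker Col1a1 lie below 0. No intervals are drawn, and the top group of library 1 has 8 cells.

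Tgfbr1, the type I receptor gene, was the least restricted of the receptor genes. It was detected in 23.4% of cells (12392 UMIs), and fibroblasts held 29.7% of its UMIs at 52.9, 42.7, 39.0 and 35.9 CPM. They also held 93356072 of the 354742109 UMIs of all genes, so this share alone is no measure of enrichment. Tumour cells had 36.0 and 40.2 CPM in libraries 1 and 2. Plasmacytoid dendritic cells, which make type I interferon, had the highest pooled level, at 100 CPM (81.0 to 123) from 93 UMIs, with 16.3 CPM in the 10 cells of library 1, 188 CPM in the 22 cells of library 2, 101 CPM in the 12 cells of library 3 and 90.3 CPM in the 87 cells of library 4. They held 0.750% of the UMIs, and 12.4% of them (7.26 to 19.4) held a Tgfbr1 UMI after thinning. Elsewhere the order changed between libraries. Macrophages led in library 1 at 66.7 CPM and had 31.8, 21.1 and 22.6 CPM in the others. Neutrophils led in library 3 at 67.6 CPM among types of at least 20 cells and had 25.5, 41.2 and 36.2 CPM in libraries 1, 2 and 4. The macrophage level was above the neutrophil level in 1 of 4 libraries, so the pooled order of this pair (53.5 against 48.7 CPM) rests on library 1. Neutrophils with neither Retnlg nor Cd274 had 44.8, 51.9, 81.1 and 42.3 CPM, above the 17.4, 30.4, 59.4 and 30.4 CPM of Retnlg-positive cells in each library.

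Tgfbr2, the ligand-binding type II receptor gene, was highest in fibroblasts, at 215, 390, 206 and 191 CPM in libraries 1 to 4. They held 61.7% of its 40264 UMIs. Endothelial cells had 77.3, 120 and 132 CPM in libraries 1 to 3. Monocyte-macrophages had 54.6, 139, 92.5 and 95.4 CPM, and monocytes had 56.8, 59.7, 50.5 and 46.9 CPM. T cells had 70.7, 29.3, 130 and 87.1 CPM, which was 32.8, 7.53, 63.0 and 45.7% of the fibroblast level where the fibroblast markers were at 0.328 to 3.67%. B cells had 205 CPM (115 to 339) from only 15 UMIs in 28 cells, an interval that spans that of fibroblasts, 263 to 270 CPM. Without library 2, the pooled B cell level of 218 CPM was above the fibroblast level of 197 CPM. The 17 B cells of library 3, too few to rank, had 286 CPM. After thinning, 26.1% of fibroblasts (24.6 to 27.7) and 0.463% of mature dendritic cells held a Tgfbr2 UMI. Tumour cells had 31.6 and 70.7 CPM.

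Macrophages differed among themselves in Tgfbr2. Those with a UMI of Cd163, the gene of a haemoglobin scavenger receptor of macrophages, had 137, 157, 172 and 117 CPM. Macrophages with Arg1, the arginase gene, and no Cd163 had 69.9, 108, 106 and 100 CPM, lower in each library. Tgfb1 showed no such order, at 241, 188, 172 and 167 CPM in Cd163-positive against 212, 211, 185 and 176 CPM in Arg1-positive cells, lower in 3 of 4 libraries.

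Tgfbr3, which encodes betaglycan, was the most restricted of the receptor genes. Fibroblasts held 76.9% of its 24422 UMIs and had 57.8, 210, 189 and 208 CPM. Endothelial cells, next in order, had 18.2, 69.1 and 68.4 CPM in libraries 1 to 3, below fibroblasts in 3 of 3. Pericytes had 33.9, 46.3 and 14.1 CPM in libraries 2 to 4. Library 1 was lowest in fibroblasts for this gene, while it was highest there for Tgfb1, Tgfb3 and Inhba. Without library 1, the lowest fibroblast level was 189 CPM. Neutrophils had 5.59, 11.6, 8.20 and 8.34 CPM, or 9.66, 5.49, 4.33 and 4.01% of the fibroblast level. Thinned, 19.5% of fibroblasts (18.1 to 20.9), 9.75% of endothelial cells (6.52 to 13.9) and 0.702% of macrophages held a Tgfbr3 UMI.

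The fibroblasts were split by Lrrc15, a gene of TGF-beta-activated tumour fibroblasts, and by Dpt, the dermatopontin gene of resident fibroblasts. Lrrc15-positive cells numbered 117, 551, 133 and 186 in libraries 1 to 4, and Dpt-positive Lrrc15-negative cells numbered 13, 663, 489 and 693, so the library 1 fibroblasts were mostly Lrrc15-positive. Inhba was higher in Lrrc15-positive cells in 4 of 4 libraries, at 1235, 316, 209 and 109 CPM against 444, 138, 158 and 40.1 CPM. Tgfbr3 was lower in them in 4 of 4, at 54.4, 202, 186 and 173 CPM against 139, 222, 193 and 218 CPM. The gaps in libraries 2 and 3 were small for Tgfbr3. For Tgfb2 the levels were 68.3, 71.7, 42.0 and 38.1 CPM against 27.8, 55.6, 50.7 and 24.7 CPM, higher in 3 of 4 libraries. Tgfb1 had 256, 56.6, 45.0 and 37.9 CPM against 83.3, 45.1, 46.6 and 37.8 CPM. In libraries 3 and 4 the Tgfb1 levels of the 2 subsets were thus close. The Lrrc15-positive cells of library 1 remained above those of libraries 2 to 4 in Tgfb1 and Inhba, so the gap between libraries was also seen within this subset. A UMI of Lrrc15 is met more often in deep cells. Median UMIs were 16051, 29025, 34862 and 45659 in Lrrc15-positive cells against 11551, 19477, 27532 and 36848 in Dpt-positive Lrrc15-negative cells, higher in 4 of 4 libraries, and the part of depth in these differences was not tested.

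**Figure D4:**
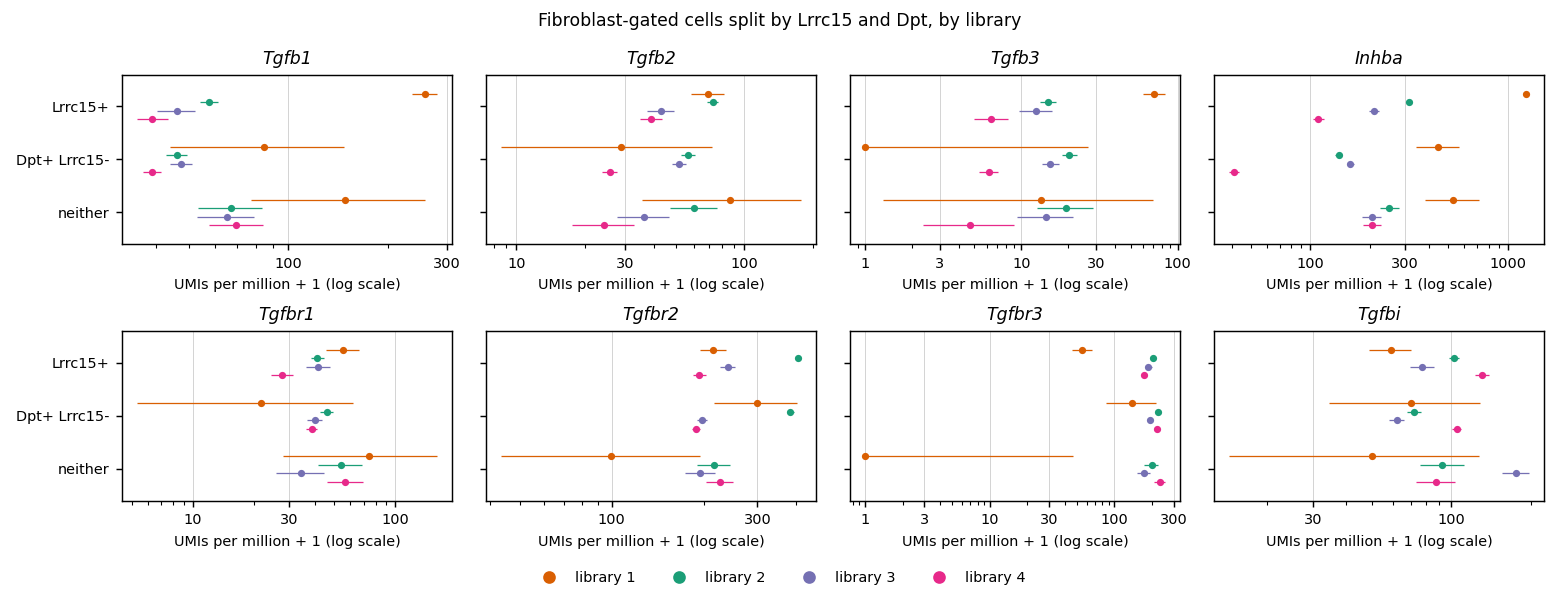
Levels of the 8 genes in fibroblasts split by Lrrc15 and Dpt, as CPM plus 1 on log axes that differ between panels, with exact 95% Poisson intervals and libraries as colours. In library 1 the Dpt-positive subset has 13 cells and the subset with neither gene 15, and Inhba lies higher in the Lrrc15-positive than in the Dpt-positive subset in all 4 libraries.

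Tgfbi, the gene of the matrix protein TGF-beta-induced, was a monocyte and macrophage gene in these tumours. It was detected in 53.5% of cells (110085 UMIs). Monocytes had 1627, 1363, 943 and 1442 CPM, monocyte-macrophages (cells with both marker sets) had 1235, 811, 896 and 1183 CPM, and macrophages had 1037, 473, 719 and 393 CPM. The order monocyte, monocyte-macrophage, macrophage was found in 4 of 4 libraries. Conventional dendritic cells had 121, 406, 340 and 465 CPM. Fibroblasts had 58.3, 87.5, 73.2 and 109 CPM, or 3.58, 6.42, 7.76 and 7.55% of the monocyte level. The monocyte markers in fibroblasts stood at 13.3, 20.4, 19.5 and 21.7%. In libraries 1 and 2 these markers summed to 727 and 914 CPM in fibroblasts against 30.5 and 40.6 CPM in tumour cells. They therefore give no measure of free monocyte RNA in fibroblasts, and the part of such RNA was not tested.

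Neutrophils had 247, 308, 350 and 717 CPM of Tgfbi, which was 15.2, 22.6, 37.2 and 49.7% of the monocyte level where the monocyte markers stood at 14.4, 11.0, 17.3 and 31.6%. The neutrophil level was highest in library 4. T cells and NK cells were also highest there, at 190 and 200 CPM, against 29.1 to 41.2 CPM for T cells in the other libraries. These levels were not spread over the types. Over all libraries, 53 of the 1046 T cells held 75.2% of the T cell Tgfbi UMIs, and 11 of the 204 NK cells held 75.2% of theirs. The part of cells that also passed the monocyte gate was not tested. The monocyte markers summed to 785 and 491 CPM in neutrophils and to 238 and 471 CPM in T cells of libraries 1 and 2. In tumour cells they summed to 30.5 and 40.6 CPM. Tumour cells were deeper, with median UMIs of 18266 and 34351, against 1616 and 1791 in neutrophils and 3997 and 5936 in T cells. Free RNA makes up less of a deeper cell's UMIs, so this comparison cannot tell how far the markers measure free monocyte RNA here. The part of such RNA in these levels was not tested. Thinned, 60.9% of monocytes (59.3 to 62.4) and 4.99% of T cells held a Tgfbi UMI. Within macrophages, Cd163-positive cells (23, 288, 41 and 107 cells) had 674, 481, 534 and 372 CPM, and cells with neither Cd163 nor Arg1 had 1076, 531, 1046 and 654 CPM, higher in each library. In library 2 the level of all macrophages lay below both of these subsets, so Arg1-positive cells without Cd163 were lower still there. No Tgfbi UMI was found in the 28 B cells, which allows up to 41.1 CPM.

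Cells in which a ligand and both receptors were seen together were counted as a description of co-detection. A UMI each of Tgfb1, Tgfbr1 and Tgfbr2 was found in 3179 of 32133 cells (9.89%, 9.57 to 10.2). The share was 35.6% of fibroblasts (33.9 to 37.3), 18.6% of endothelial cells, 17.2% of tumour cells, 13.8% of macrophages and 0.503% of neutrophils. By library, fibroblasts had 40.0, 31.6, 32.0 and 42.9%. Depth differed strongly between these types, with median UMIs of 27921 in fibroblasts and 1823 in neutrophils. At 1000 UMIs a cell, 2 of 3093 fibroblasts (0.0647%, 0.00783 to 0.233) and 4 of 8181 neutrophils (0.0489%, 0.0133 to 0.125) held all 3, so no order of types was detectable at equal depth. Tgfbr1 and Tgfbr2 together were found in 55.0% of fibroblasts (1.20% thinned), and with Tgfbr3 in 52.4%. Inhba with its receptors Acvr1b and Acvr2a was found in 8.09% of fibroblasts and in 0 of 3093 after thinning.

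The other 49 pathway genes were taken from lists by role, and 45 of them had at least 100 UMIs. Acvr1c, Inhbc, Inhbe and Mstn did not. One type led in every library for 8 of the 45, each time fibroblasts, among them Col1a1, Dcn, Fn1, Fst, Lrrc15, Ltbp2 and Postn. Over all genes one type led in every library for 9.67%, and fibroblasts led in every library for 4.63%. Col1a1 and Dcn were also gate markers of fibroblasts, and Lrrc15 split the subsets, so these 3 are no finding. Fibroblasts led 12 of the 45 when libraries were pooled, against 9.56% of all genes. Fn1 was not among these, as tumour cells had 1521 CPM when pooled against 1359 CPM in fibroblasts. Libraries 3 and 4 held too few tumour cells to rank.

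**Figure D5:**
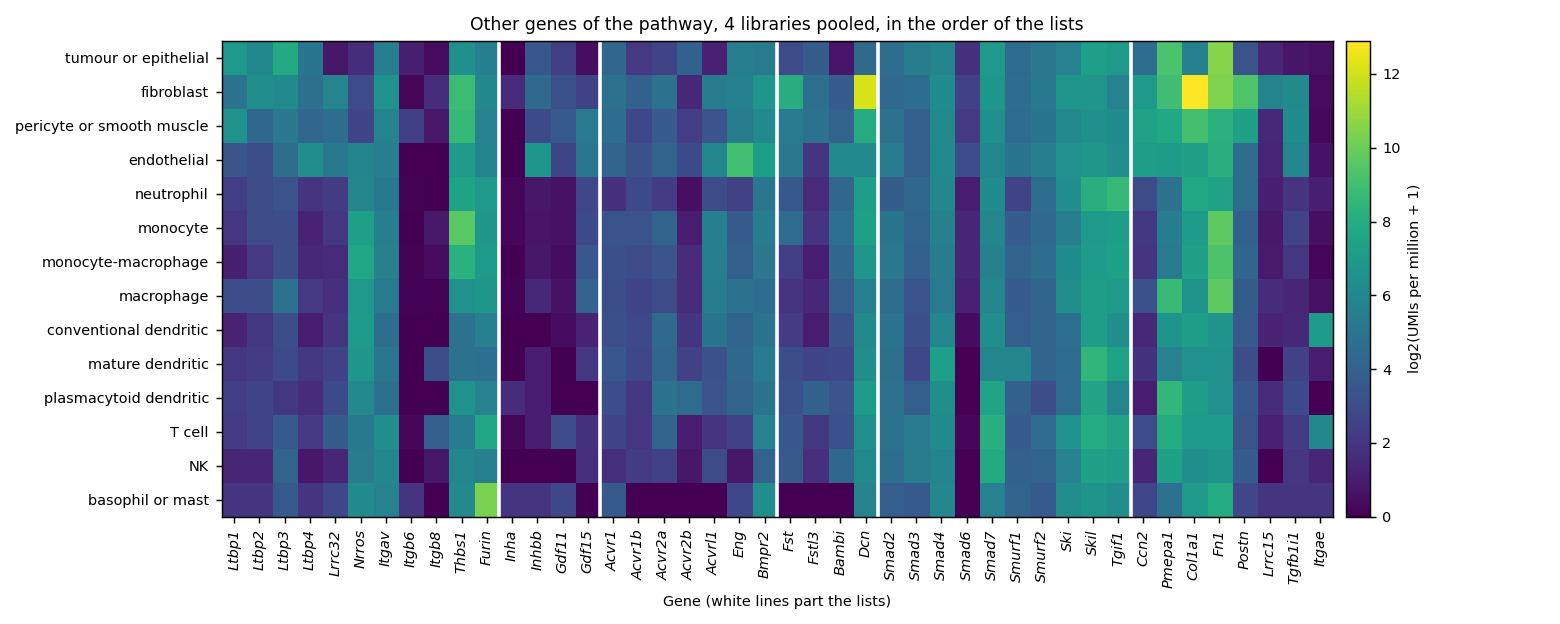
Heatmap of the pooled level, as log2 of CPM plus 1, of other pathway genes with at least 100 UMIs in each gated type but keratinocytes and B cells, grouped by role. Fst and Postn are highest in fibroblasts, Eng and Inhbb in endothelial cells, and Nrros in monocyte-macrophages.

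Of the 11 latency and activation genes, 3 were highest in fibroblasts when pooled: Ltbp2, Lrrc32 and Itgav. Fibroblasts led 9.56% of all genes in this way, and of the 3 they led Ltbp2 in every library. Lrrc32, which encodes GARP, a protein that tethers latent TGF-beta to the cell surface, had 85.2, 72.0, 40.8 and 50.7 CPM in fibroblasts and 63.6, 31.4 and 44.2 CPM in the endothelial cells of libraries 1 to 3. Nrros, its myeloid counterpart, had 88.0, 225, 183 and 195 CPM in monocyte-macrophages and 0.897 to 11.8 CPM in fibroblasts. The latency proteins' genes Ltbp1 and Ltbp3 were highest in tumour cells, at 116 and 232 CPM. Thbs1, the gene of thrombospondin 1, an activator of latent TGF-beta, had 126, 815, 724 and 797 CPM in monocytes and 679, 707, 559 and 167 CPM in fibroblasts. Itgb8, an integrin chain that activates latent TGF-beta, was low, with 5.30, 22.8, 24.3 and 2.87 CPM in T cells. Furin, the protease gene that matures the ligands, had 1257 CPM in the 88 basophils or mast cells.

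Of the 4 antagonists, Fst and Dcn were led by fibroblasts in 4 of 4 libraries, against 4.63% of all genes, and Dcn was a gate marker. Fst, the follistatin gene, had 214, 259, 295 and 242 CPM in fibroblasts. The Fst level of fibroblasts was lowest in library 1, where their Inhba level was highest. Among libraries 2 to 4 no such opposite order was seen, as both genes were lowest in library 4. In the Inhba-high fibroblasts Fst had 196, 315, 317 and 259 CPM against 215, 255, 293 and 240 CPM in the rest. It was thus higher in them in libraries 2 to 4 and lower in library 1. Bambi, a decoy receptor gene, was highest in endothelial cells at 70.3 CPM. Of the 7 other receptor genes, none was led by one type in every library. Eng, the endoglin co-receptor gene of endothelium, had 693, 466 and 533 CPM in endothelial cells of libraries 1 to 3, and Acvrl1 had 60.1 CPM there. Acvr1b, the type I activin receptor gene, had 7.62, 17.5, 13.5 and 13.9 CPM in fibroblasts, and Acvr2a had 12.6, 23.2, 28.5 and 30.7 CPM. Of the 4 other activin, inhibin and GDF ligand genes, Inhbb, the activin B subunit gene, had 200, 84.6 and 164 CPM in endothelial cells of libraries 1 to 3 and 10.7 to 81.6 CPM in fibroblasts.

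None of the 10 SMAD signalling genes was led by one type in every library. Smad7, the inhibitory SMAD gene, was highest in T cells, at 294, 202, 350 and 267 CPM, above fibroblasts with 139, 114, 122 and 103 CPM in each library. Skil and Smad4 were highest in mature dendritic cells, at 364 and 154 CPM, Tgif1 in neutrophils, at 400.0 CPM, and Smad3 in tumour cells, at 42.0 CPM. Of the 12 genes known to be induced by TGF-beta, 5 were led by fibroblasts in 4 of 4 libraries, against 4.63% of all genes. Among them were Col1a1, a gate marker, and Lrrc15, which split the subsets, besides Fn1 and Postn. When pooled, Fn1 was led by tumour cells. Postn, the periostin gene, had 2062, 1060, 468 and 309 CPM in fibroblasts, and its levels ranked the libraries as those of Inhba did. This order was not particular to them, as fibroblast levels of Tgfb1, Tgfb2, Tgfb3 and Tgfbr1 also fell from library 1 to library 4. Median UMIs per fibroblast ran the other way, at 14238, 22870.5, 28167 and 37072, and the part of depth in this order was not tested. Pmepa1 was highest in tumour cells when pooled, at 612 CPM, with 485 CPM in fibroblasts, but tumour cells led in library 2 only. Fibroblasts led Pmepa1 in libraries 1 and 3, and plasmacytoid dendritic cells in library 4.

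The genes whose levels ran most like each member were taken over 35 points of type by library (13 types of at least 50 cells, log2 of CPM plus 10). The points of one library share its depth and free RNA, and no p was computed. Tgfb2 was most like Col27a1 (Pearson r 0.96), Cygb (0.95) and Sema5a (0.94). Tgfbr3 was most like Adam12 and Nsg1 (0.95 each), and Tgfbi was most like Clec4a2 and Clec4a3 (0.95 each) and Cd300c2 (0.94). Tgfb3 was near Tead3 and Serpine2 (0.91 each) and Ednra (0.90). The likeness was looser for the other members. Tgfbr2 had Igf1 (0.81), B4galt1 (0.80) and Coq8b (0.78), Tgfb1 had Ptpn18 (0.80), Gng2 (0.78) and Dok2 (0.78), and Inhba had Mgst1 (0.79), P4ha1 (0.78) and C3 (0.77). Tgfbr1 had the lowest values, with Nek6 (0.64), Prdx5 (0.59) and Slpi (0.57). Among the members, r was 0.79 between Tgfb2 and Tgfbr3 and 0.72 between Tgfb2 and Tgfb3, while Tgfb1 and Tgfb2 had -0.54.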

How the data were processed

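Per the labels and the study's methods, single CD45-sorted cells were run on the 10x Genomics 3′ platform. The authors deposited 1 matrix of raw UMI counts (55450 genes, 33064 barcodes), made with Cell Ranger: the matrix header names version 6.1.2, the methods 3.0.2, and the submitters' processing notes 2.1.1 with build mm10. The series' design text names 15603 cells after its filter, and the same filter left 32133 here. Identifiers matched 55450 genes of GENCODE vM21.

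Counts were summed per gated type and library and divided by all UMIs (Python 3.11.15, numpy 2.4.6, scipy 1.17.1, pandas 2.3.3, matplotlib 3.10.9). A gate needed at least 2 distinct markers and a share of UMIs above a limit set after the files were seen. Within 1.5-fold of its limit lay 900 cells for the fibroblast gate, 1013 for the neutrophil gate and 4618 for the monocyte gate. Cells of several gates were left out, which is also how doublets were treated, with exceptions. Monocyte with macrophage gave monocyte-macrophage. A cell that passed the monocyte gate and 1 gate other than macrophage kept that other type. Cells of the conventional and mature dendritic gates were called mature dendritic. Doublets of monocytes with other types could therefore remain in those types. The members and the gene lists were chosen with earlier results of these data known. Genes named were the 8 members, the pathway lists (per list the highest in fibroblasts and those led by another type) and, per member, the 3 genes of at least 500 UMIs most like it; a few of these are not reported here. The steps were tested on simulated data. Alternatives were other gates, filters, depths and detection limits, and each library left out.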

Additional observations from a re-analysis of the deposited data

How the results depend on the processing

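With no link from library to sample, nothing here measures the spread between mice or between treatments. Under 15 alternative settings, 3 of them chosen after seeing the data (a lower fibroblast limit with 3740 fibroblasts, a wider neutrophil gate with 377 more cells, and ranking from 10 cells), the number of the 8 genes led by fibroblasts stayed at 4, except for a range of 3 to 4 when each library was left out. Without library 1 Inhba was led by tumour cells and without library 2 Tgfbr2 by B cells. The number of genes with 1 leading type in every library was 5. It was 3 with each cell thinned to 1000 UMIs, where Inhba and Tgfb2 had another leading type in at least 1 library. It was 4 without the top 5% of cells by UMIs or when types of 10 cells were ranked. With types of 10 cells, Inhba was led in library 4 by endothelial cells, a lead that rests mainly on 1 cell. When a library was left out the number ranged from 5 to 6. That setting could not lower the number, as it asks for the same type in fewer libraries. The share of fibroblasts with Tgfb1, Tgfbr1 and Tgfbr2 was 35.6%. It was 0.0647% when thinned, 33.5% without the top 5% of cells by UMIs and 11.7% when at least 2 UMIs of each gene were needed, and ranged from 32.3 to 38.4% when a library was left out. Thinning and the need for 2 UMIs both ask more of each cell's depth. Of Inhba UMIs the fibroblast share ran from 19.5 to 55.4% over the alternatives, and of Tgfbr3 UMIs from 61.8 to 83.5%. No paired analysis was possible because no source used here links libraries to samples and no test was run.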

Other observations

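Cells that passed no gate held 26.1% of all Inhba UMIs. The 1078 of them with over 10000 UMIs had 550, 330, 222 and 98.8 CPM of Inhba in libraries 1 to 4, above the fibroblast level in libraries 2 to 4, and 50.3% of them held a UMI. Their leading genes against all cells were Il11, Rrm2, Pdpn, Cryab, Il1rl1, Crip2, Des and Myod1, a muscle lineage factor. Des was found in 29.5% of them and Myod1 in 11.8%. Col3a1 was found in 95.3% of them, at 1246 CPM against 14869 CPM in fibroblasts, and also in 60.9% of neutrophils. In the 5% of these 1078 ungated cells with the most Inhba per UMI (5, 11, 28 and 12 cells), Il11 had 786, 770, 1858 and 210 CPM against 105, 210, 592 and 114 CPM in the rest. It was higher in 4 of 4 libraries. Tgfb2 had 6.94, 27.5, 24.4 and 22.5 CPM and Tgfbr3 had 49.8, 30.0, 64.7 and 68.3 CPM in these ungated cells, below the fibroblast level in each library. The 2746 ungated cells with up to 10000 UMIs had among their leading genes haemoglobin genes, Ccl3, Prok2, Cxcl3 and Il1a, and had 403, 169, 76.3 and 48.5 CPM of Inhba. No type is given to either set of cells.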
